A study of Mus musculus with 114 samples.

Results

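The nuclear genes for subunits of the oxidative phosphorylation complexes were described in RNA bound to tagged ribosomes from mouse prefrontal cortex. They were chosen by gene symbol, as Nduf, Sdh, Uqcr, Cox or Atp5 genes of numbered or lettered subunits, with Cox6a2 left out. The rule found 77 genes among the 13101 in the table: 36 of complex I, 4 of complex II, 8 of complex III, 12 of complex IV and 17 of complex V. All 77 passed the filter on low counts. A few of the symbols stand for something other than a plain subunit. Ndufa4 carries a complex I symbol but is known as a subunit of complex IV, Cox7a2l is a factor that joins complexes III and IV, and Atp5s is a coupling factor outside the structural core of complex V. Cox6c2 has no coding sequence in the annotation and resembles Cox6c, so reads could be divided between the pair, and other small subunits have processed copies in the genome with the same uncertainty.

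The libraries come from brain tissue of Ribo-tag mice of both sexes, taken every 4 h at zeitgeber times ZT2, ZT6, ZT10, ZT14, ZT18 and ZT22 (hours after lights on). Ribosomes carrying a haemagglutinin tag were pulled down, and the labels name parvalbumin interneurons and pyramidal cells as their sources. Strain, age, treatment and the driver of the tag are not in the labels. Libraries whose titles start with PV carry the entry for pyramidal cells, and those that start with C the entry for parvalbumin interneurons. They are therefore called PV-titled (55) and C-titled (58) by title alone, with 8 to 10 for each prefix and time. Whether each library came from its own animal is not in the labels, so p values measure the spread between libraries, which may be technical. Libraries held between 19.1 and 44.1 M counts on genes (1 M is 1e+06). Parvalbumin and GABAergic markers were higher in PV-titled libraries (6 of 6 and 6 of 6 genes, edgeR) and pyramidal markers higher in C-titled libraries (8 of 8). Over all genes tested, 44.3% were higher and 43.2% lower in PV-titled libraries. Markers of other cells were higher in PV-titled libraries too: 7 of 7 astrocyte genes, 7 of 7 oligodendrocyte genes, 8 of 8 microglia genes and 8 of 8 endothelial and mural genes. The summed level of the 7 astrocyte genes was 1045 to 2503 CPM (counts for each M of a library's scaled total) in PV-titled and 317.7 to 1179 CPM in C-titled libraries, and no gene of these lists was at 0 throughout. The oligodendrocyte sum was 262.07 to 787 CPM in PV-titled and 136 to 347 CPM in C-titled libraries, the microglia sum 151.6 to 269.5 and 29.8 to 80.1 CPM, and the endothelial and mural sum 96.0 to 272.5 and 11.3 to 72.9 CPM. The part of these other cells in the results below was not tested. Pyramidal marker RNA was present in PV-titled libraries as well. The sum of the 8 genes was 1304 to 3634 CPM there and 3667 to 7602 CPM in C-titled libraries, and its part was not tested either. Titles carry library numbers in separate ranges, and the range is a term of each fit. Of the C-titled libraries 5 stood apart, C_3F and C_4D at ZT2 and C_3D, C_3H and C_5K at ZT6, with a median correlation to other C-titled libraries of 0.878 to 0.941, against 0.959 to 0.982 in the other 53. Of the PV-titled libraries 3 had values of 0.808 to 0.854, against 0.892 to 0.952 in the other 52.

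Oxidative phosphorylation makes most of a neuron's ATP. Complexes I and II pass electrons to ubiquinone, complex III passes them to cytochrome c and complex IV to oxygen, while I, III and IV pump protons that drive ATP synthesis by complex V. Complexes I, III, IV and V combine subunits from the nuclear genome with subunits from mitochondrial DNA, and complex II is wholly nuclear. Parvalbumin interneurons, which fire at high rates, are known for dense mitochondria.

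Nuclear respiratory factor 1 and factors of the ETS family are textbook regulators of these genes. The windows from 250 bases before to 50 after the annotated start were read from RefSeq (GRCm38.p6) for the 62 of 77 genes matched by symbol. A gene with more than 1 annotated start was counted once, as matched if any of its windows matched. The NRF1 motif GCGCNTGCG, searched on both strands, was found for 23 of 62 genes (37.1%), against 7.12% of 27025 genes. This length of the motif was chosen after its values were seen. With 1 more base, a C at its end, it was found for 17 of 62 genes (27.4%, against 5.19%). The ETS motif CCGGAAG was found for 16 genes (25.8%, against 9.93%), and the estrogen-related receptor motif TCAAGGTCA for 2 genes (3.23%, against 0.466%). Overlapping matches of 1 motif were counted once, and matches of different motifs separately. A match is a description of letters, not a bound site. The 120 bases before the start are shown, 5′ to 3′ along each gene, for the genes at the lower end of complexes I, II and V and for Ndufb2, the gene whose transcript did not pass the test between prefixes. NRF1 matches are in capitals.
Ndufb4, chr16:37654369-37654488 (- strand): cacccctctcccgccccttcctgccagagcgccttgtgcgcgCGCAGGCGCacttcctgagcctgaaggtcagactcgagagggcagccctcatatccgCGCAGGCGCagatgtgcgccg
Sdha, chr13:74350241-74350360 (- strand): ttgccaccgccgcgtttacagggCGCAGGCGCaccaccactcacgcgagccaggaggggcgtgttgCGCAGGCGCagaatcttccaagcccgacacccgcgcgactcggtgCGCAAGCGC
Atp5g2, chr15:102671048-102671167 (- strand): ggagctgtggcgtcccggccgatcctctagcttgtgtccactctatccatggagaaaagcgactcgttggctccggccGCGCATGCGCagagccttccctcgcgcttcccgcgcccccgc
Ndufb2, chr6:39592445-39592564 (+ strand): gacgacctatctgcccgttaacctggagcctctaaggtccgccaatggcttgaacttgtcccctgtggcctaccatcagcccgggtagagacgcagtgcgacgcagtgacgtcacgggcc
The Ndufb4 and Sdha windows each held 3 matches, of which the Ndufb4 stretch shows 2, the Atp5g2 window held 1, and the Ndufb2 window held none. These genes do not stand for the others. The window of Ndufc2, next to Ndufb4 at the lower end of complex I, held 0 matches. That of Uqcr10, the least changed gene of complex III, held 1. A relation between matches and the difference between prefixes was not tested.

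Transcripts of all 5 complexes were mostly lower in the PV-titled libraries. With edgeR's quasi-likelihood test (adjusted p under 0.05), 75 of 77 genes were lower, 1 was higher and 1 did not pass. Of all 13053 genes tested 43.2% were lower and 44.3% higher. The median log2 difference of the 77 genes was -0.70, a 1.62-fold lower level, against 0.01 over all genes. A fall of at least 1.5-fold passed for 44 of 77 genes (17.2% of all genes) and a fall of at least 2-fold for 0 of 77 (4.54% of all genes). The direction was found in both ranges of library numbers, with 63 genes lower (38.5% of all genes) and a median of -0.50 in the first and 76 lower (41.7% of all genes) and a median of -0.87 in the second, where all genes stood at 0.02 and 0.01. Without the 5 C-titled libraries 75 genes were lower (44.1% of all genes) and the median was -0.67. Scaling by library totals alone moved the median of all genes to 0.21 and that of the 77 to -0.49, 0.70 below it. In ribosome pull-downs, fewer cells of a type and less RNA per cell cannot be told apart.

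**Figure D1:**
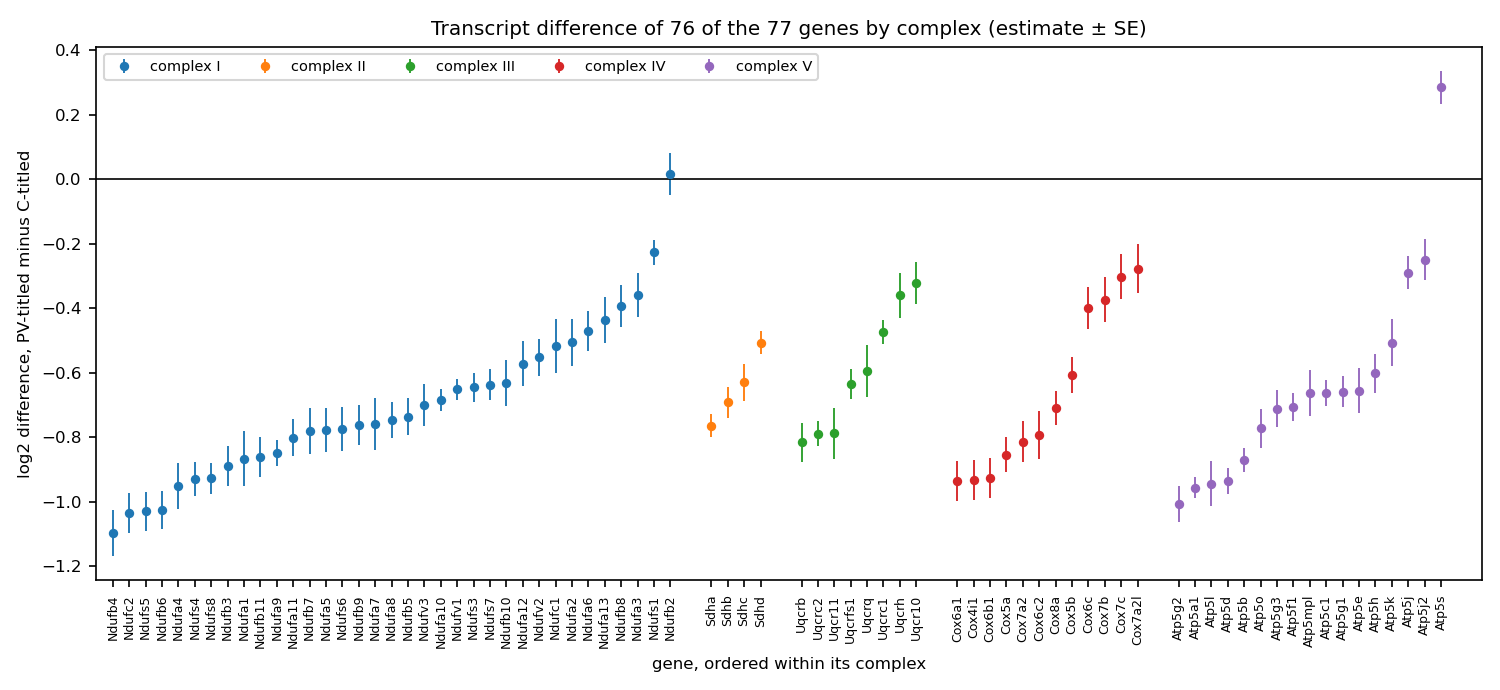
Log2 difference between PV-titled and C-titled libraries (y axis, estimate ± SE) for 76 of the 77 genes (x axis), ordered within complexes I to V. Apart from Ndufb2 and Atp5s the genes lie below 0, down to -1.10 for Ndufb4.

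Complex I, the NADH dehydrogenase, had 35 of 36 genes lower and a median of -0.74. Ndufb4, an accessory subunit of the membrane arm, had the lowest log2 difference of all. The gene lies at chr16:37647170-37654453 (GRCm38, - strand). Its level was 83.2 to 249.9 CPM in C-titled libraries (median 114) and 35.5 to 102 CPM in PV-titled libraries (median 51.7). The ranges overlap, but all 55 PV-titled libraries were below the C-titled median, and the log2 difference was -1.10 ± 0.07 (SE, adjusted p = 4.5e-29, edgeR). Ndufc2, another membrane-arm accessory subunit, followed at -1.03 ± 0.06. The 7 catalytic core subunits, which carry the flavin, the iron-sulphur clusters and the quinone site, were all lower with a median of -0.64, and the 29 others had a median of -0.76. Within the core, Ndufs8 stood at -0.93 and Ndufs1 at -0.23 ± 0.04 (adjusted p = 4.3e-08, edgeR). Ndufs1, the large iron-sulphur subunit, had a median of 174.6 CPM in C-titled and 144.3 CPM in PV-titled libraries, and 46 of 55 PV-titled libraries lay below the C-titled median.

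Ndufb2 (chr6:39592574-39603382, GRCm38, + strand), a small membrane-arm subunit, did not pass (0.02 ± 0.07, adjusted p = 0.83, edgeR). Its medians were 44.6 CPM in C-titled libraries (35.6 to 99.3) and 43.7 CPM in PV-titled libraries (33.0 to 152.95). The highest PV-titled value belonged to ZT14, where the gene was higher in PV-titled libraries by 0.53 ± 0.15 on the log2 scale. The difference was 0.21 in the first and -0.18 in the second range of library numbers.

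Complex II, succinate dehydrogenase, is shared with the citric acid cycle, and 4 of 4 genes were lower. Sdha, the flavoprotein, spanned 422 to 779 CPM in C-titled libraries (median 639) and 247.05 to 526.4 CPM in PV-titled libraries (median 369). The log2 difference was -0.76 ± 0.04, and all 55 PV-titled libraries were below the C-titled median. The iron-sulphur subunit Sdhb stood at -0.69 ± 0.05, and the membrane anchors Sdhc and Sdhd at -0.63 ± 0.06 and -0.51 ± 0.04.

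Complex III, which passes electrons from ubiquinol to cytochrome c, had 8 of 8 genes of the rule lower with a median of -0.61. The rule leaves out Cyc1 of this complex (-0.21 ± 0.04) and Ndufab1 of complex I (-0.51 ± 0.05), both lower in PV-titled libraries. Uqcrb, which lines the ubiquinone site, was lowest at -0.82 ± 0.06, with 63.9 to 227.5 CPM in C-titled and 22.6 to 109 CPM in PV-titled libraries. The core proteins Uqcrc2 and Uqcrc1 stood at -0.79 ± 0.04 and -0.47 ± 0.04. The Rieske iron-sulphur protein Uqcrfs1 was at -0.63 ± 0.05. The small subunits Uqcrh and Uqcr10 were the least changed of the 8 at -0.36 ± 0.07 and -0.32 ± 0.06, with 45 of 55 PV-titled libraries below the C-titled median for each.

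Complex IV, cytochrome c oxidase, had 12 of 12 genes lower and a median of -0.75. The ubiquitous isoforms Cox6a1 (-0.94 ± 0.06), Cox4i1 (-0.93 ± 0.06) and Cox6b1 (-0.93 ± 0.06) were lowest. Cox4i1 ranged from 495 to 1900 CPM in C-titled libraries (median 671) and from 255.4 to 532 CPM in PV-titled libraries (median 363). Ndufa4 stood with them at -0.95 ± 0.07. Cox7a2 was at -0.81 ± 0.06 and Cox8a at -0.71 ± 0.05. Cox7c and Cox7a2l were the least changed at -0.30 ± 0.07 and -0.28 ± 0.08, with 43 of 55 PV-titled libraries below the C-titled median for each. The isoforms Cox4i2, Cox6b2, Cox7a1, Cox8b and Ndufa4l2 were looked up by symbol and gave no gene to test, so their levels are not known here. Cox6a2, the muscle isoform outside the rule, went the other way: it made up 13.1% ± 3.85 (SD, n = 55) of the summed CPM per kilobase of Cox6a1 and Cox6a2 in PV-titled libraries and 0.164% ± 0.156 (SD, n = 58) in C-titled libraries.

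Complex V, ATP synthase, had 16 of 17 genes lower and a median of -0.66. The 5 genes of the F1 head, the part that makes ATP, had the lowest median of its subassemblies at -0.87. Atp5a1 (α subunit) had 972 to 1314 CPM in C-titled and 404 to 841 CPM in PV-titled libraries, with no overlap, and a log2 difference of -0.96 ± 0.03. Atp5b (β subunit), the most abundant of the 77 in CPM, had 1161 to 1889 CPM in C-titled and 510 to 1143 CPM in PV-titled libraries, at -0.87 ± 0.04. Atp5d (δ subunit) had 240.98 to 470 CPM and 112 to 236.96 CPM, at -0.94 ± 0.04. For these 3 genes each PV-titled library was below each C-titled library, which held for 2.1% of all genes tested.

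The 3 genes for the proton-carrying c ring encode the same mature protein behind different import signals. Atp5g2 was at -1.01 ± 0.06, Atp5g3 at -0.71 ± 0.06 and Atp5g1 at -0.66 ± 0.05. Per kilobase, Atp5g3 made up 56.8% ± 2.89 (SD, n = 58) of the c-ring total in C-titled and 58.1% ± 3.63 (SD, n = 55) in PV-titled libraries. Atp5g1 made up 26.2% ± 3.43 and 27.5% ± 3.15, and Atp5g2 17.0% ± 2.50 and 14.5% ± 2.52. In CPM alone Atp5g1 and Atp5g3 were close. Their means were 255.8 and 251.7 CPM in C-titled and 161.97 and 153.1 CPM in PV-titled libraries. The larger share of Atp5g3 therefore depends on the annotated exon lengths. The 4 genes of the peripheral stalk had a median of -0.65, from Atp5o at -0.77 to Atp5j at -0.29 ± 0.05. Atp5j2, a small membrane subunit, was the least changed of the complex V genes that passed as lower (-0.25 ± 0.06), with 39 of 55 PV-titled libraries below the C-titled median. Atp5s (chr12:69724950-69744660, GRCm38, + strand) was higher in PV-titled libraries by 0.28 ± 0.05 (adjusted p = 1.6e-07, edgeR), with medians of 37.9 and 31.6 CPM, and 8 of 55 PV-titled libraries lay below the C-titled median.

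Per kilobase of merged exon, the highest mean levels in C-titled libraries were those of Cox8a (591 CPM per kilobase), Cox4i1 (471), Cox6b1 (373) and Cox6a1 (370), followed by Atp5a1 (361) and Atp5b (361). In PV-titled libraries Cox8a (358), Cox4i1 (244.3) and Atp5b (197.5) led. Ndufb2 had the lowest level in C-titled libraries at 8.44 CPM per kilobase. In CPM alone the lowest mean there was 15.6, of a complex IV gene. Merged exons join all annotated exons of a gene and can be longer than the transcript present. Ndufb7, for example, has 4522 bp of merged exon and 411 bp of coding length. The order per kilobase therefore depends on the annotation.

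Genes around the complexes were mixed. The counts below stand beside 43.2% of all genes lower and 44.3% higher in PV-titled libraries. Of 43 assembly factors tested, which build the complexes but do not stay in them, 21 were lower and 9 higher in PV-titled libraries, with a median of -0.11. They ran from Sdhaf4 at -1.11 to the copper chaperone Cox17 at 2.41. Of 17 citric acid cycle and pyruvate dehydrogenase genes, 14 were lower and 2 higher (median -0.52), with Mdh2 at -1.23, Cs at -0.72 and Suclg2 at 1.75. Of 13 regulators of mitochondrial genes, 8 were higher and 4 lower. The coactivator Ppargc1a was higher by 0.97 ± 0.05 and Nrf1 by 0.31 ± 0.05, while Tfam, which packages mitochondrial DNA, was lower (-0.56 ± 0.05). The mitochondrially encoded transcripts were all higher in PV-titled libraries (11 of 11, median 2.41), beside 44.3% of all genes. Their summed level was 1011 to 11212 CPM in PV-titled and 418 to 1975 CPM in C-titled libraries. Among them mt-Nd3, mt-Co2, mt-Co3 and mt-Atp6 were near the floor. Their means were 0.17 to 0.37 CPM in C-titled and 0.57 to 1.98 CPM in PV-titled libraries. How mitochondrially encoded transcripts came into the pull-downs was not tested. Non-coding RNAs known to stay in the nucleus were also higher (7 of 7, median 2.73), beside the same 44.3% of all genes.

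Transcript length went with the difference. Over all genes, those with merged exons of at most 2723 bp (the lowest 25%) had a median of -0.27 and those over 6968 bp (the highest 25%) 0.35, and 59 of the 77 genes lie in the shortest class. Among genes with a coding length of at most 600 bp, the 56 members had a median of -0.71 and 1422 other genes -0.31. Over 1200 bp the 9 members had a median of -0.70 and 7064 other genes 0.17. The length classes were chosen with the values known, and the part of length in the difference was not tested.

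Most of the 77 genes were lower in PV-titled libraries at each time. The test at each time called 75 of 77 lower at ZT2 (35.4% of all genes), 73 at ZT6 (36.4%), 64 at ZT10 (32.3%), 56 at ZT14 (33.1%), 67 at ZT18 (32.4%) and 70 at ZT22 (31.8%). The median log2 difference was -0.94 at ZT2, -0.73 at ZT6, -0.61 at ZT10, -0.54 at ZT14, -0.67 at ZT18 and -0.69 at ZT22. Without the 5 C-titled libraries of low correlation, all from ZT2 and ZT6, the median was -0.79 at ZT2 and -0.56 at ZT6, with 74 (34.9% of all genes) and 58 (35.3%) genes called lower, and ZT2 still had the largest difference. At the other times, where no library was left out, refitting gave 72 genes lower at ZT10 (35.0% of all genes), 60 at ZT14 (35.7%), 72 at ZT18 (34.4%) and 73 at ZT22 (33.9%). With all libraries, Sdha ran from -0.86 at ZT14 to -0.65 at ZT10, while Ndufb4 ran from -1.49 ± 0.18 at ZT2 to -0.77 ± 0.16 at ZT14. Without the 5, the lowest value of any complex I gene at ZT2 was -1.26. With all libraries, Atp5s was higher in PV-titled libraries at ZT14, ZT18 and ZT22 (0.33 ± 0.12, 0.45 ± 0.13 and 0.32 ± 0.12) and did not pass at the other times. Besides Atp5s, only Ndufb2 at ZT14 was called higher in PV-titled libraries in the test at each time with all libraries.

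**Figure D2:**
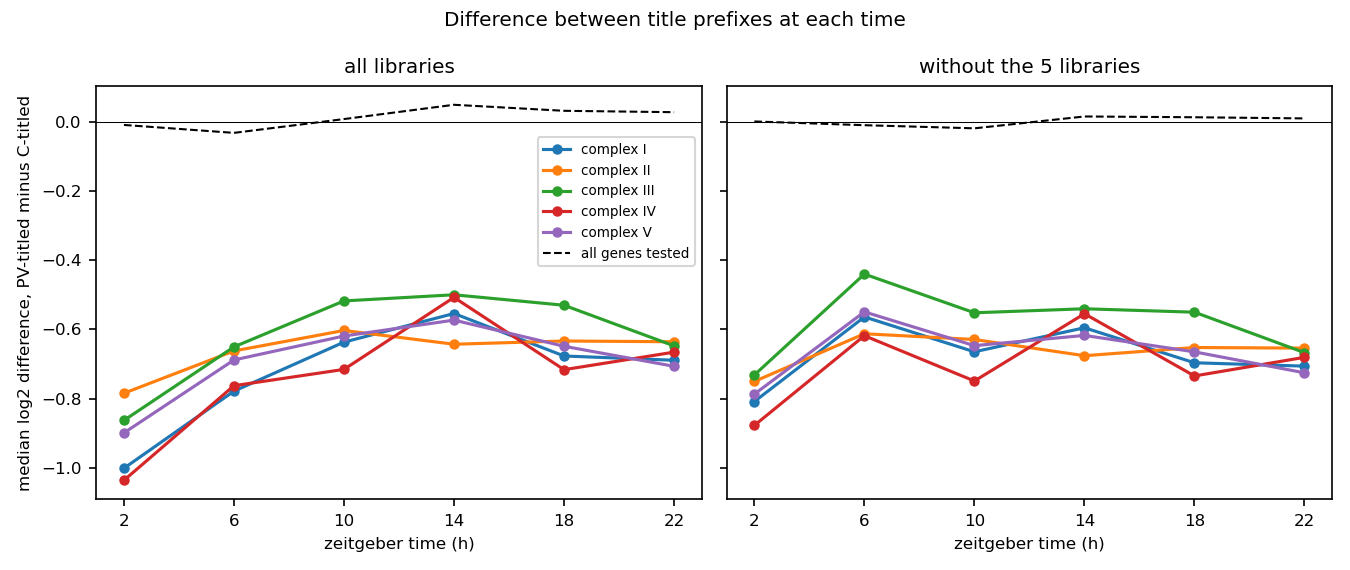
Median log2 difference between PV-titled and C-titled libraries (y axis) at each zeitgeber time (x axis, hours) for the genes of each complex and for all genes tested, with all libraries and without the 5 C-titled libraries of low correlation. With all libraries complex I reaches -1.0 and complex IV -1.04 at ZT2, and without the 5 libraries they stand at -0.81 and -0.88.

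Within C-titled libraries, a 24 h rhythm was called for 34 of 77 genes with all 58 libraries and for 1 of 77 without the 5 (edgeR). Over all genes the shares were 27.0% and 22%. The 34 genes were fitted to peak between ZT3.38 and ZT5.81, in the light phase, and 15.8% of all genes were called with a peak before ZT12. They comprised 19 of 36 genes of complex I, 0 of 4 of complex II, 3 of 8 of complex III, 6 of 12 of complex IV and 6 of 17 of complex V. The median amplitude (mean to peak, log2) of the 77 genes was 0.16 with all libraries and 0.06 without the 5, against 0.12 and 0.09 over all genes. Within the library-number ranges 0 of 77 genes were called in the first (2.9% of all genes) and 6 in the second (10.2%). Leaving out single libraries, chosen after seeing the data, gave 20 genes without C_5K (25% of all genes), 21 without C_3H (22%) and 18 without C_4D and C_5K together (26.2%).

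The mean log2 CPM of the 77 genes in C-titled libraries was 7.52 ± 0.32 (SD, n = 10) at ZT2, 7.51 ± 0.33 (n = 10) at ZT6, 7.44 ± 0.30 (n = 9) at ZT10, 7.26 ± 0.18 (n = 10) at ZT14, 7.35 ± 0.15 (n = 9) at ZT18 and 7.30 ± 0.13 (n = 10) at ZT22. Without the 5 libraries it was 7.39 ± 0.14 (n = 8) at ZT2 and 7.34 ± 0.16 (n = 7) at ZT6, and the highest mean was then that of ZT10. Each complex had its highest mean at ZT2 with all libraries and at ZT10 without the 5. The ZT10 group includes C_5C, a library outside the 5 with a mean of 8.01 over the 77 genes. The median of the 9 ZT10 libraries was 7.43. The place of the highest mean at ZT10 rests on C_5C, over the 77 genes and in each complex.

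**Figure D3:**
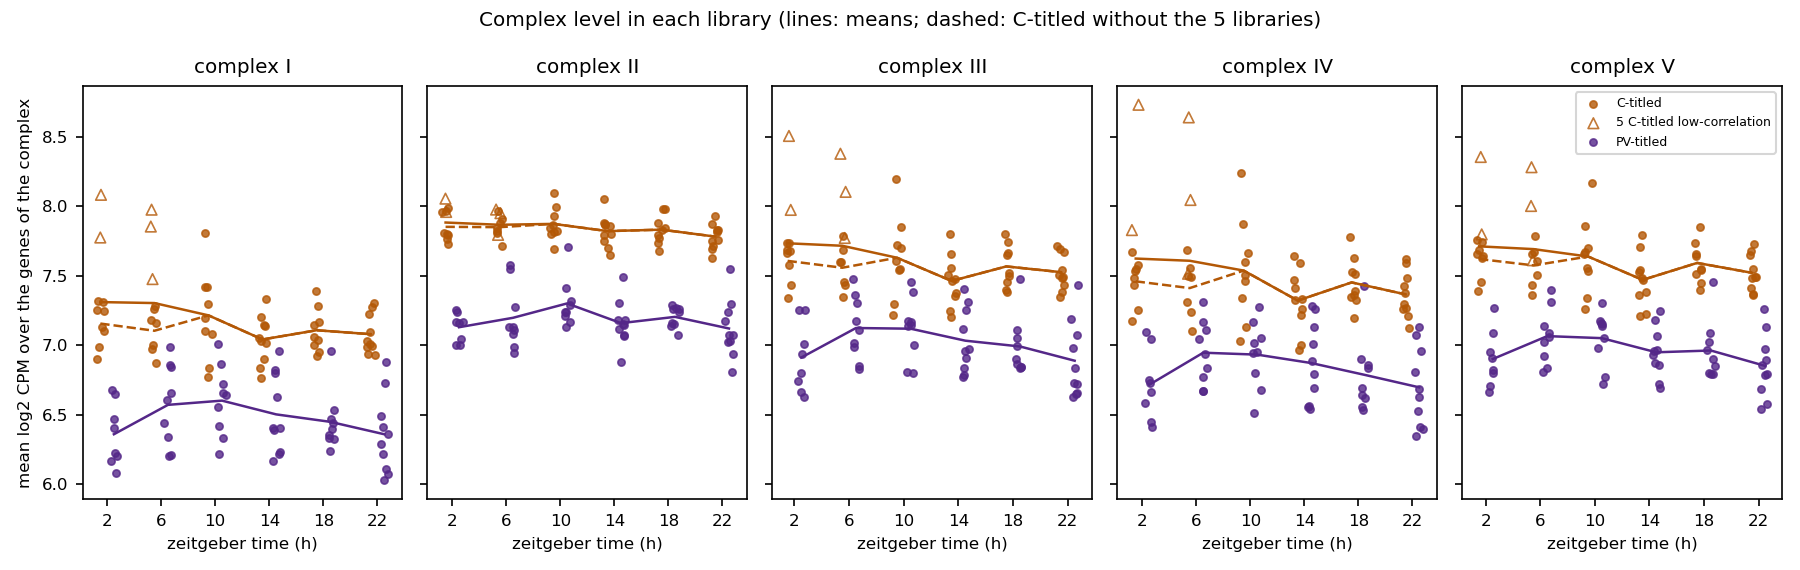
Mean log2 CPM over the genes of each complex (y axis) in each library against zeitgeber time (x axis, hours), PV-titled and C-titled, with the 5 C-titled libraries as open triangles, lines for group means and a dashed line for C-titled means without them. C-titled means lie above PV-titled means in each complex. In complex IV the triangles at ZT2 lie at 8.73 and 7.83, where the highest other C-titled library is at 7.67.

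Ndufc1, a small membrane-arm subunit of complex I, had the largest amplitude, 0.31 ± 0.07 (SE, adjusted p = 0.0049, edgeR), with a fitted peak at ZT4.71. In C-titled libraries it had a lowest, median and highest level of 85.1, 108 and 275.9 CPM at ZT2, and 84.1, 89.7 and 116 CPM at ZT22. Its highest values at ZT2 and ZT6 come from the 5 libraries, since without them the maxima there were 113 and 120 CPM. The amplitude was then 0.09 and the adjusted p 0.28. Ndufa1 (0.29), Ndufa7 (0.27), Ndufa13 (0.26) and Ndufa4 (0.23), Uqcrq of complex III (0.28) and Atp5mpl of complex V (0.25) were called as well with all libraries. Without the 5 their amplitudes were 0.07 to 0.10 and none was called.

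Uqcrfs1 (chr13:30540308-30545362, GRCm38, - strand) had the smallest p and was the 1 gene still called without the 5 libraries. Its C-titled median was 263.3 CPM at ZT2 (205.4 to 423), 255.5 at ZT6, 251.4 at ZT10, 225.04 at ZT14, 225.003 at ZT18 and 235.8 at ZT22. The amplitude was 0.17 ± 0.04 with a fitted peak at ZT4.99 (adjusted p = 0.0016, edgeR), and 0.09 ± 0.03 without the 5 libraries (adjusted p = 0.044, edgeR). Leaving out C_5C at ZT10 as well, a choice made after seeing the data, left 0 of 77 genes called (22.2% of all genes). Uqcrfs1 also had the smallest p in PV-titled libraries, with an amplitude of 0.17 ± 0.05 and a fitted peak at ZT7.27 (adjusted p = 0.062, edgeR).

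The 9 members with a coding length over 1200 bp had fitted amplitudes from 0.0053 to 0.19. Sdha had the smallest (adjusted p = 0.99, edgeR), with medians between 612 and 657 CPM at the 6 times, followed by Atp5a1 at 0.0054 and Uqcrc2 at 0.0095. Ndufv3, the largest of the 9 at 0.19, lay above the median of the 77 genes. It was the 1 called of the 9, against 29 of 56 members of at most 600 bp. The shares among other genes of those lengths were 24.6% and 35.9%. Without the 5 libraries 0 of 9 and 0 of 56 members were called, and 22.4% and 18.6% of the other genes.

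**Figure D4:**
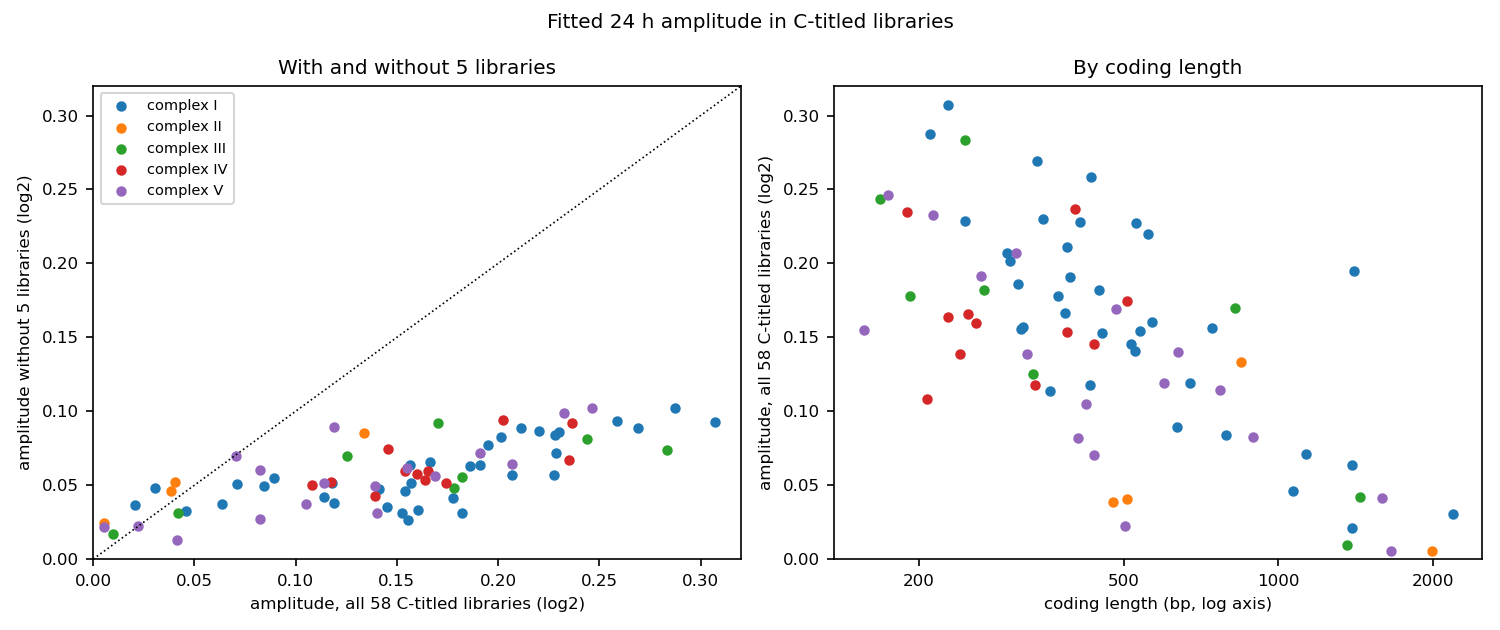
Fitted 24 h amplitude (log2) of the 77 genes in C-titled libraries, at left with all 58 libraries (x axis) against without 5 libraries (y axis), the dotted line marking equal values, and at right against coding length in bp on a log axis (76 genes, as Cox6c2 has no coding length). Amplitudes reach 0.31 with all libraries and 0.10 without the 5.

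The level of the 77 genes varied between libraries of 1 prefix together with other short transcripts. For each library the median deviation of the 77 genes from their medians over the prefix was set beside that of the other protein-coding genes with at most 1000 bp of merged exon. In C_4D the members deviated by 1.19 and the short genes by 0.90, in C_5K by 0.98 and 0.87, in C_3H by 0.63 and 0.41, in C_3F by 0.46 and 0.23 and in C_3D by 0.19 and 0.04. C_5C, a ZT10 library outside the 5, had 0.78 and 0.70. The other 15 C-titled libraries at ZT2 and ZT6 ranged from -0.28 to 0.18 in the members. The share of counts on the 77 genes was 2.59% in C_4D, 2.49% in C_5K, 1.87% in C_3H, 1.55% in C_3D and 1.48% in C_3F, against 1.35% to 2.28% in the other 53 C-titled libraries (median 1.60%). C_3D and C_3F lay below that median in their share of counts, while their deviations above are after TMM scaling, with factors of 0.795 and 0.651 against 0.886 to 1.01 in the other 53. Summed nuclear non-coding RNA was 1120 to 23565 CPM in the 5 libraries and 708 to 4399 CPM in the other C-titled libraries, and the astrocyte sum was 615 to 1179 CPM against 317.7 to 1033 CPM (median 504), so these ranges overlap. The other sums overlapped as well: oligodendrocyte genes had 136 to 217.3 CPM in the 5 against 162.3 to 347 CPM, microglia genes 39.8 to 55.9 against 29.8 to 80.1 CPM, and endothelial and mural genes 17.5 to 46.1 against 11.3 to 72.9 CPM. With the short-gene deviation as a further term, an alternative chosen after seeing the data, 5 of 77 genes were called rhythmic (20.1% of all genes): Uqcrfs1, Atp5mpl, Cox5a, Ndufa6 and Ndufs4. With that term and without the 5 libraries 4 of 77 were called (27.1% of all genes).

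**Figure D5:**
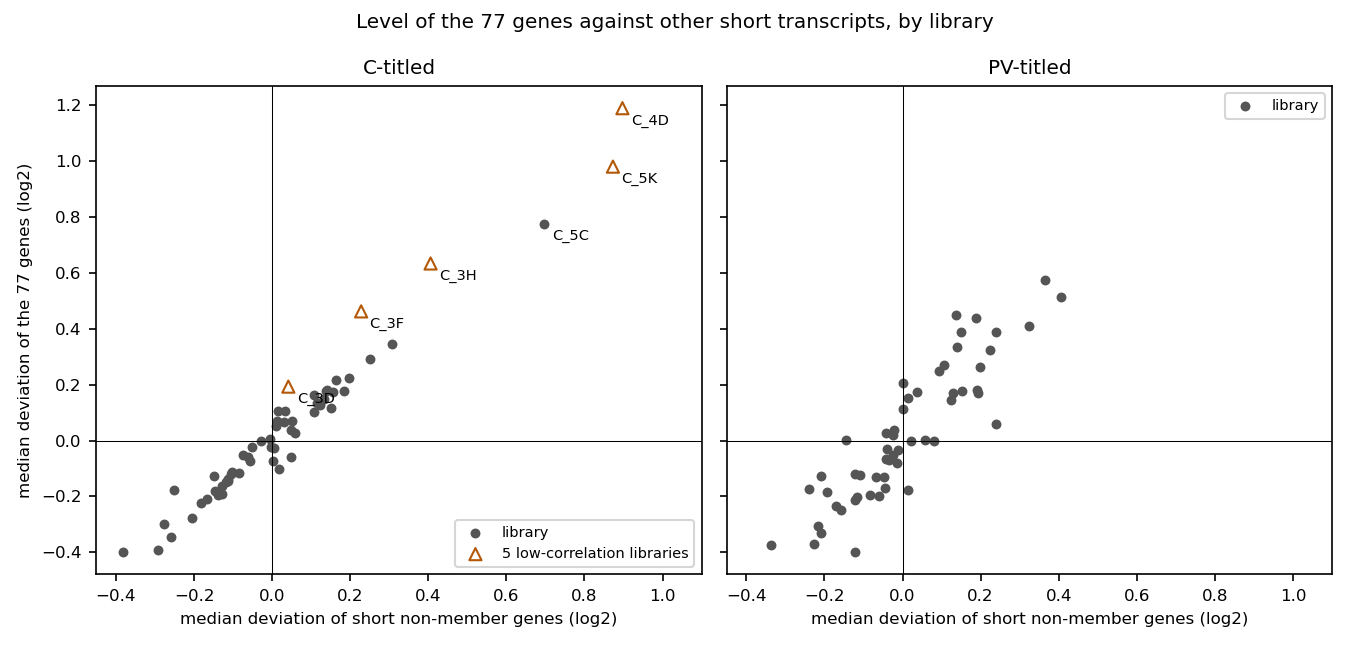
Median deviation (log2) of the 77 genes (y axis) against that of other short protein-coding genes (x axis) in each library, C-titled at left and PV-titled at right, with triangles for the 5 libraries of low correlation. C_4D lies highest at 1.19, and in PV-titled libraries the members span -0.40 to 0.57.

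Within PV-titled libraries 0 of 77 genes were called rhythmic by edgeR, where 3.1% of all genes were. At an unadjusted p under 0.05 there were 10 of 77, beside 17.2% of all genes, and DESeq2 called 1, Uqcrfs1 (4.55% of all genes). The median amplitude was 0.11, beside 0.11 over all genes. Mean log2 CPM was 6.63 ± 0.21 (SD, n = 8) at ZT2, 6.83 ± 0.25 (n = 9) at ZT6, 6.84 ± 0.22 (n = 9) at ZT10, 6.75 ± 0.24 (n = 10) at ZT14, 6.71 ± 0.20 (n = 9) at ZT18 and 6.61 ± 0.26 (n = 10) at ZT22. Fitted peaks lay between ZT8 and ZT12 for 64 of 77 genes and for 19.7% of all genes, but these genes did not pass the test. Cox7a2l had the largest amplitude (0.20 ± 0.07) and Cox5b the second smallest p (amplitude 0.14, unadjusted p = 0.021 and adjusted p = 0.20, edgeR).

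A difference in rhythm between prefixes was called for 0 of 77 genes by edgeR (0.559% of all genes) and for 0 by DESeq2 (1.23%). At an unadjusted p under 0.05 there were 18 of 77, beside 13.5% of all genes. Ndufb2 had the smallest adjusted p (0.083, edgeR), with fitted peaks at ZT4.02 in C-titled and ZT13.9 in PV-titled libraries.

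Males and females were compared within each prefix. In C-titled libraries 0 of 77 genes were called between males and females (0.184% of all genes, edgeR), 6 had an unadjusted p under 0.05 (7.61% of all genes), and the log2 differences ran from -0.06 to 0.17. In PV-titled libraries 0 of 77 were called (0.0307% of all genes, edgeR), 0 had an unadjusted p under 0.05 (2.77% of all genes), and the range was -0.04 to 0.14. Males had the higher estimate for 67 of 77 genes in C-titled and 68 of 77 in PV-titled libraries, where over all genes the shares were 43.8% and 52.4%. Without the 5 libraries Ndufv1, the flavin subunit, was called at 0.12 (adjusted p = 0.048, edgeR), as were 0.698% of all genes.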

How the data were processed

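The deposited table gives counts of reads per gene for each library, made by the authors with HTSeq against GRCm38, per the submitters' processing notes, which also name FastQC and DESeq2. Aligner, tool versions and annotation: not given in the sources used here. Of the sample columns 1 was not used, because the sex in its name differs from the title it would match. Reads assigned to no gene were kept out of library sizes. They made up 51.9% to 59.4% of all counted reads in C-titled libraries (median 52.8%) and 55.5% to 67.7% in PV-titled libraries (median 61.2%). C_4D (59.4%) and C_5K (58.8%) were highest among C-titled libraries, and the 53 outside the 5 ran from 51.9% to 54.9%. Counts on genes had a median of 34.4 M in C-titled and 25.7 M in PV-titled libraries. The part of these differences in the results was not tested. Symbols, positions and lengths came from GENCODE vM21.

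Counts were tested with R 4.3.3 and edgeR 4.0.16 (TMM, filterByExpr, quasi-likelihood F tests), fitted on all genes, with Benjamini-Hochberg adjustment over all genes and a threshold of 0.05. Prefix was tested with time, sex and library-number range as terms, minimum folds of 1.5 and 2 with glmTreat, and rhythm within a prefix by cosine and sine of 24 h together. CPM are after TMM scaling, and log2 CPM use a prior count of 2. DESeq2 1.42.0 and the settings in the closing section were alternatives. The procedure was tested on simulated data, drawn with a single dispersion for all genes and without outlying libraries. That test cannot speak to the effect of the 5 libraries on the rhythm calls. Ranges of CPM cover libraries, and counts without molecular identifiers give no count of molecules.

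The members and gene lists were chosen with earlier results of these data known. Genes named with values are the 2 lowest and 2 highest differences of each complex, those that did not follow the majority, the isoform sets and the 8 smallest rhythm p values of each prefix, with the smallest sex p values. Others were named after their values were seen. A result on 1 of the genes named by this rule is not reported here.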

Additional observations from a re-analysis of the deposited data

Results flagged for a closer look

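Outlying libraries were looked for in the mean log2 CPM of each complex in each group of prefix and time, 60 groups in all, of which chance flags about 1 in 20. A library was singled out where its gap to its neighbour exceeded Dixon's 95% critical value, which happened in 7 groups.

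PV_4B at ZT18 was the highest of 9 PV-titled libraries in 4 complexes: complex I at 6.96 with the next at 6.53, complex III at 7.47 with the next at 7.11, complex IV at 7.43 with the next at 6.90, and complex V at 7.45 with the next at 7.09. It held 19.1 M (1e+06) counts on genes, and its deviation was 0.57 in the 77 genes and 0.36 in the other short genes. C_4D at ZT2 was the highest of 10 C-titled libraries in complex IV at 8.73 (next 7.83) and in complex V at 8.35 (next 7.80). PV_1J at ZT10 was the highest of 9 in complex II at 7.70, with the next at 7.41.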

How the results depend on the processing

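The count of 75 genes lower in PV-titled libraries held at 63 to 76 under each alternative tried: DESeq2 size factors, library totals alone (which gave 2 genes higher in place of 1), no filter, DESeq2, without the 5 or 8 libraries of low correlation, each library-number range and each sex. With a fold of 2 in place of 1.5 no gene passed (0 in place of 44). Ndufb2 turned to -0.0017 with DESeq2 size factors and with DESeq2, -0.18 in the second range and -0.045 in females. In the first range Atp5j2 stood at 0.020 and Cox7a2l at 0.0075, and neither passed.

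The 34 genes called rhythmic in C-titled libraries (27.0% of all genes) became, with the share of all genes in brackets, 16 with library totals alone (21.9%), 2 with time as a factor (10%), 0 in the first (2.9%) and 6 in the second range (10.2%), 0 in females (2.07%) and 0 in males (3.63%), 41 with DESeq2 (28.9%), and 1 without the 5 libraries (22%). Alternatives chosen after seeing the data gave 21 without C_3H alone (22%), 20 without C_5K alone (25%), 18 without C_4D and C_5K (26.2%), 0 without the 5 and C_5C (22.2%), 5 with the short-gene term (20.1%) and 4 with that term without the 5 (27.1%). The cause of the other changes was not tested. In PV-titled libraries DESeq2 called 1 gene in place of 0. For sex in C-titled libraries 1 gene was called without the 5 libraries in place of 0. No paired analysis was possible because replicate numbers follow accession order. The lowest total was 19.1 M (1e+06) counts on genes, and the lowest mean of a member was 8.77 CPM.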
